A study of Homo sapiens with 4 samples.

Results

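FOXC1 chromatin immunoprecipitation with sequencing (ChIP-seq) had been performed in J82, an established line of human bladder cancer cells, grown in DMEM with serum and with no other treatment or edit. To examine the promoter peaks that 1 replicate listed and the other did not, the peak list of FOXC1 ChIP replicate 2 was set against that of replicate 1. Antibody D8A6 against FOXC1 was used for both ChIP libraries, and each had an input library made without antibody, whose file was not analysed here. The study's methods call the ChIP libraries biological replicates, and all cells came from 1 line. A promoter peak was a peak on chromosomes 1 to 22 or X with its summit within 2 kb of an annotated transcript start of a protein-coding gene. Replicate 2 had 6268 such peaks among 41750, of which 4475 shared not even 1 bp with any of the 22393 replicate 1 intervals. These 4475 peaks, called replicate 2-only promoter peaks, are the regions described here, and the other 1793 promoter peaks of replicate 2, overlapped by a replicate 1 peak, are the set they were compared with. They were chosen by measured values, namely presence in one list and absence from the other. Their strength is therefore given as a description with no test.

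Promoters are the stretches around transcript starts where the transcription machinery assembles. Many human promoters, above all those of genes that every cell uses, are rich in CG dinucleotides (CpG), which are scarce elsewhere in the genome because methylated cytosine mutates readily. Promoters of genes used in few cell types are more often poor in CpG. FOXC1 belongs to the forkhead family, whose members bind AT-rich sequence of the form GTAAACA and close variants, letters that a CpG-rich window seldom holds.

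The sequences of 8 replicate 2-only promoter peaks are shown first, each from 50 bp before to 50 bp after the summit, on the forward strand of hg19. They stand for 3 kinds of region that recur below and are among the strongest of each. Not shown is the largest group, the 2635 of 4475 peaks that held no forkhead heptamer and were not CpG-rich. The first 3 held a forkhead heptamer and were not CpG-rich, with the heptamer, or its reverse complement TGTTTAC, in capitals.
BCO2 chr11:112087309-112087409: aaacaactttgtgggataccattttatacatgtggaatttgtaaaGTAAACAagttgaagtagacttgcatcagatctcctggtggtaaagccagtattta
EFCAB2 chr1:245134861-245134961: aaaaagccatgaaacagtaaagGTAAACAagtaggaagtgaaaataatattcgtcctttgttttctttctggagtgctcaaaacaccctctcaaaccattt
BAIAP3 chr16:1381835-1381935: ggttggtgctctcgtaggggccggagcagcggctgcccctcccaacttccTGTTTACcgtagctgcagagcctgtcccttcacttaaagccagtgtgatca
In all 3 the capitals read GTAAACA on one strand or the other, with the centre of the match 2 bp, 25 bp and 3 bp from the summit in BCO2, EFCAB2 and BAIAP3. The next 3 were CpG-rich and held no forkhead heptamer, with each CG in capitals.
ROCK1 chr18:18692068-18692168: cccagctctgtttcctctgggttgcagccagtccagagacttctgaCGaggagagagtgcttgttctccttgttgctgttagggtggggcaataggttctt
PIM1 chr6:37137439-37137539: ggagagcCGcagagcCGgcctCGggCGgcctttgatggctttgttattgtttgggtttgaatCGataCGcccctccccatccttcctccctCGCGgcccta
DMAP1 chr1:44678982-44679082: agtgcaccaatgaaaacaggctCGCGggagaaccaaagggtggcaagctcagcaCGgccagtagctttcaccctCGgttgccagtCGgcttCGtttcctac
The printed window held 1 CG at ROCK1, 8 at PIM1 and 6 at DMAP1, while the wider 500 bp window by which a summit was called CpG-rich held 31, 53 and 30. The last pair was both CpG-rich and marked by a forkhead heptamer, again in capitals.
CCDC91 chr12:28343281-28343381: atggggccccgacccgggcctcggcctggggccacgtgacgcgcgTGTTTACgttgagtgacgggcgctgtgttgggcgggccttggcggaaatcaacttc
KLHDC2 chr14:50234795-50234895: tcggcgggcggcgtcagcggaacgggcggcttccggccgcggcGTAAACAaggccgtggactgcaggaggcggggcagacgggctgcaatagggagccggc
Here GTAAACA, or its reverse complement, lay 2 bp from the summit at CCDC91 and 4 bp from it at KLHDC2, among 12 and 15 CG dinucleotides in the printed window. The start sites were close, 29 bp away at CCDC91, a factor of Golgi trafficking, and 3 bp away at KLHDC2, a substrate receptor of a ubiquitin ligase.

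To describe how strong the replicate 2-only promoter peaks were, the values deposited for replicate 2 were used, since replicate 1 gives none where it lists no peak. The fold enrichment, the ratio of ChIP signal to local background at the summit, had a median of 3.25 and ran from 1.58 to 13.0. Overlapped promoter peaks had a median of 6.73 and reached 94.5. The replicate 2-only peaks rested on a median of 18 ChIP reads over the summit, with a range of 10 to 78, against a median of 42 reads in overlapped peaks. The 2 sets thus overlapped in strength, but most replicate 2-only peaks were weak. Of the 4475, 906 (20.2%) had a q-value above 0.05, against 15 (0.837%) of the overlapped peaks, and 1014 had a −log10 q of 5 or more. Their median width was 350 bp, against 525 bp. Depth limits the single peak here: a summit of 18 reads over a background of 4.42 reads is a small count.

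**Figure D1:**
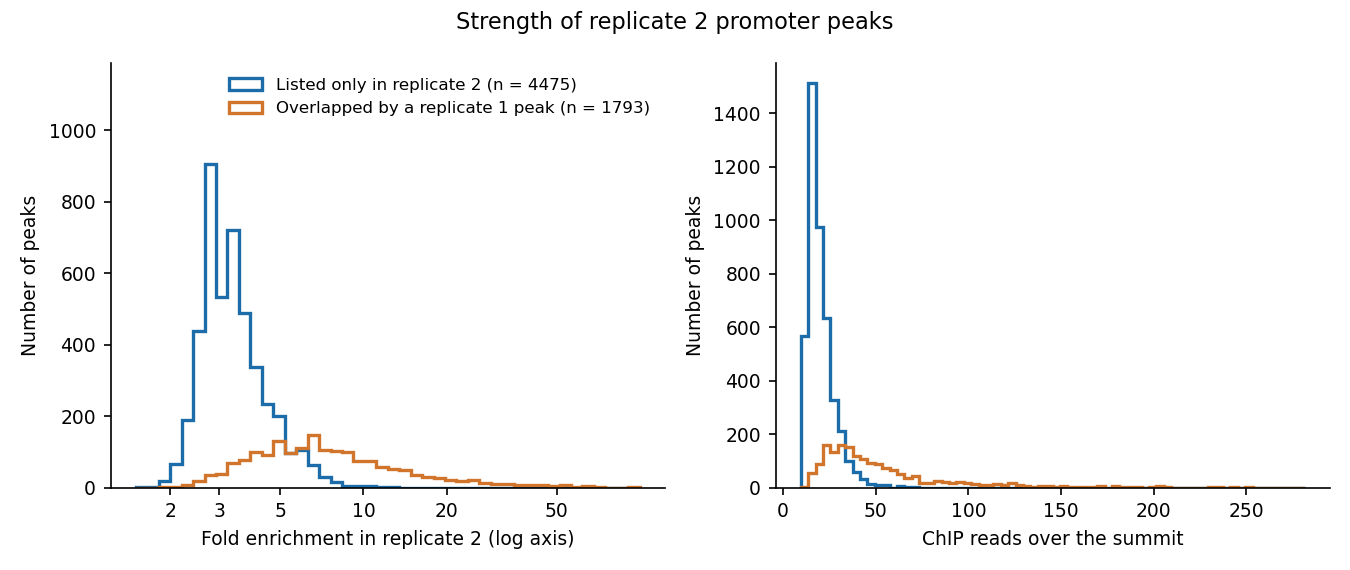
Number of replicate 2 promoter peaks by fold enrichment (left, log axis) and by ChIP reads over the summit (right), with peaks listed only in replicate 2 in blue and peaks overlapped by replicate 1 in orange. The blue peaks lie mostly at the low end, with a median fold enrichment of 3.25 and 18 reads, and the orange peaks spread to the right, with medians of 6.73 and 42.

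Absence from the replicate 1 list was seldom a matter of a few bases. The median gap from a replicate 2-only promoter peak to the nearest replicate 1 peak was 28089 bp, and 219 of them (4.89%) had one within 1 kb. Just inside the limit of the rule stood a peak at EXD3, whose gap was 27 bp, and one at MUC5B, a gel-forming mucin, whose gap was 29 bp. Just outside stood a peak near FOS, an AP-1 subunit, which shared 5 bp with a replicate 1 peak at a fold enrichment of 5.15, and one near KRTAP3-1, which shared 6 bp. At the distance limit, peaks 1999 bp from the start of STUM and 1998 bp from that of JAG1, a Notch ligand, were kept, while those 2002 bp from RCSD1 and ZNF341 were not.

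The strongest replicate 2-only promoter peak lay in an intron of BCO2, a carotenoid-cleaving enzyme, at chr11:112087074-112087666, with 67 reads over a background of 4.15 and a −log10 q of 46.6. Next came FIG4, a phosphoinositide phosphatase, at a fold enrichment of 11.99 and 73 reads, and EFCAB2 at 11.4 and 62 reads. FBXO32, a ubiquitin ligase subunit known from muscle wasting, followed at 10.7, and it was the only CpG-rich summit among the 12 strongest. The remaining ones of the 12 ran from 10.7 to 9.34 and included peaks at BAIAP3, CNEP1R1, PDZD2, CALHM5, WSB1, TLN2 and FAM186A. WSB1 encodes a ubiquitin ligase receptor, and TLN2 talin 2, which ties integrins to actin. All 12 were listed with a −log10 q above 30, and the replicate 1 list had no peak within 3 kb of any of them.

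To see where in the promoter these peaks sat, each summit was measured from the nearest annotated start. The median distance was 604 bp, and 2282 summits (51.0%) lay upstream. The density was highest next to the start: 609 summits (13.6%) fell in the 200 bp before it and 453 (10.1%) in the 200 bp after it, against 287 (6.41%) in the 500 bp farthest upstream. Within 200 bp of a start lay 1065 replicate 2-only peaks (23.8%, 95% Wilson interval 22.6 to 25.1) and 471 overlapped peaks (26.3%, 24.3 to 28.4). The difference of −2.47 percentage points (95% Newcombe interval −4.89 to −0.114) had p = 0.0407 by two-sided Fisher's exact test and 0.0814 after Benjamini-Hochberg adjustment over the 4 measures compared, so it did not pass the threshold. Compared within 10 bins of fold enrichment, the direction turned: the share was 3.74 points higher in replicate 2-only peaks (odds ratio 1.23, 1.03 to 1.47, Mantel-Haenszel chi-square test p = 0.0262, adjusted 0.0349). These tests, like those that follow, treat peaks as units although all came from 1 pair of libraries, so they cover counting error over regions and not the spread between replicates.

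Many of these summits were not at the main start of their gene. Of the replicate 2-only peaks, 2668 (59.6%) had the summit in an intron, 652 (14.6%) between genes, 462 (10.3%) in an untranslated exon and 202 (4.51%) in coding sequence. More than 2 kb from the canonical start, the one start GENCODE marks per gene, lay 2142 (47.9%, 46.4 to 49.3) of the replicate 2-only peaks and 50.4% (48.0 to 52.7) of the overlapped ones. For the replicate 2-only peaks this differed by base composition, with 10.97% of the CpG-rich summits and 53.8% of the others that far away.

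**Figure D2:**
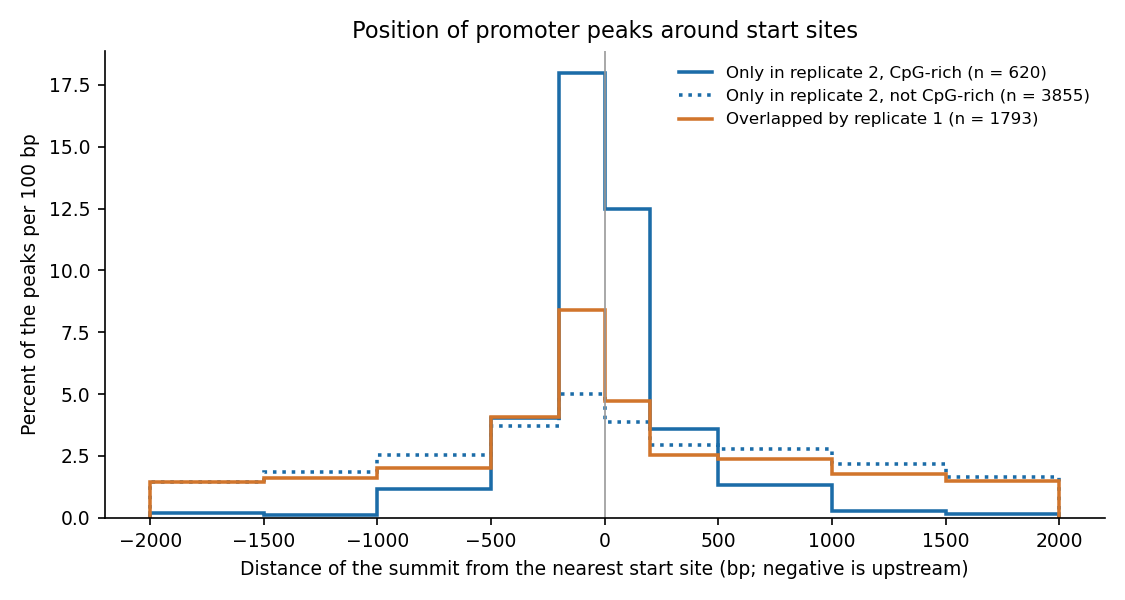
Percent of the peaks per 100 bp against the distance of the summit from the nearest start site, for CpG-rich (solid blue) and other (dotted blue) replicate 2-only promoter peaks and for overlapped promoter peaks (orange). CpG-rich replicate 2-only summits crowd within 200 bp of the start. The others are densest there too but are spread more widely over the 2 kb on either side. They have 5.01% per 100 bp in the 200 bp before the start and 1.46% in the 500 bp farthest upstream.

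To ask whether replicate 2-only peaks marked CpG-rich promoters more or less often than overlapped ones, a summit was called CpG-rich where the 500 bp around it had at least 55% GC and an observed to expected CpG ratio of at least 0.65. By this definition 620 of the 4475 replicate 2-only promoter peaks were CpG-rich (13.9%, 12.9 to 14.9), and 260 of the 1793 overlapped ones (14.5%, 12.9 to 16.2). The difference was −0.646 percentage points (−2.61 to 1.23, Fisher's exact test p = 0.520), and the interval leaves room for a small difference either way. Around the canonical starts of protein-coding genes, by contrast, 63% of windows were CpG-rich. Outside promoters only 0.416% of the replicate 2-only summits were.

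**Figure D3:**
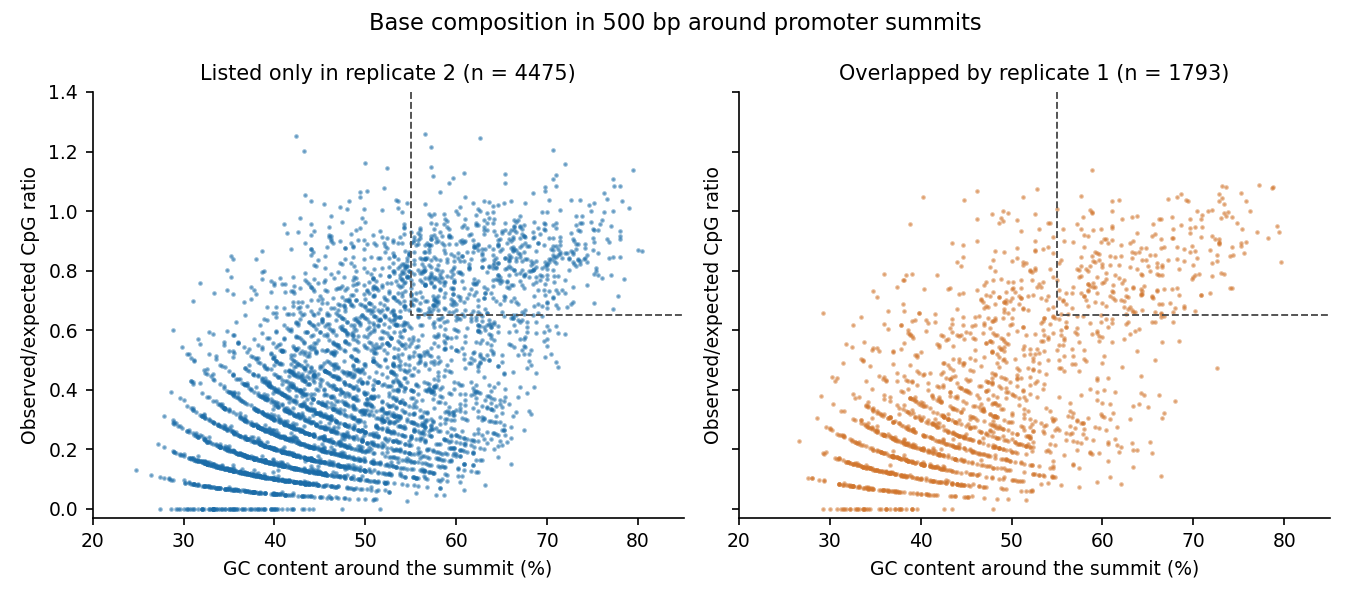
GC content against the observed to expected CpG ratio in the 500 bp around each summit, for replicate 2-only promoter peaks (left) and overlapped ones (right), with the dashed lines enclosing summits called CpG-rich. Both sets have the same 2 parts, a large CpG-poor one at the lower left and a smaller CpG-rich one at the upper right, which holds 13.9% and 14.5% of the peaks.

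The comparison changed once peaks of like strength were compared. Within bins of fold enrichment, CpG-rich summits were 5.53 points more frequent among replicate 2-only peaks (odds ratio 1.63, 1.29 to 2.05, Mantel-Haenszel chi-square test p = 6.81e-05, adjusted 0.000273). In the fold enrichment bin from 3.63 to 4.01, 17.9% of 592 replicate 2-only peaks and 7.23% of 83 overlapped peaks were CpG-rich, while in the bin from 5.92 to 8.72 the shares were 17.4% and 19.0%. In the strongest bin, which held 16 replicate 2-only peaks, they were 6.25% and 17.8%. Strength does not mean the same in both sets, however. In the lowest bin, overlapped peaks had a median local background of 9.90 reads and replicate 2-only peaks 4.48, and within bins of −log10 p in place of fold enrichment the difference was 3.60 points (odds ratio 1.36, 1.07 to 1.71, chi-square test p = 0.0122). The part of background and of strength in these differences was not tested.

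Base composition taken at the start site rather than at the summit gave another view. The window around the nearest start was CpG-rich for 1788 replicate 2-only peaks (40.0%, 38.5 to 41.4) and for 652 overlapped peaks (36.4%, 34.2 to 38.6). This difference of 3.59 points had p = 0.00838 by two-sided Fisher's exact test, unadjusted, in contrast to that at the summit. Many summits beside CpG-rich starts lay outside the CpG-rich stretch itself. CpG-rich replicate 2-only summits had a median distance to the start of 139 bp, against 713 bp for the others, and 380 of them (61.3%) lay within 200 bp. The overlapped CpG-rich summits were placed alike, with a median of 122 bp and 62.3% within 200 bp. CpG-rich replicate 2-only peaks had a median fold enrichment of 3.44 and the others 3.21.

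**Figure D4:**
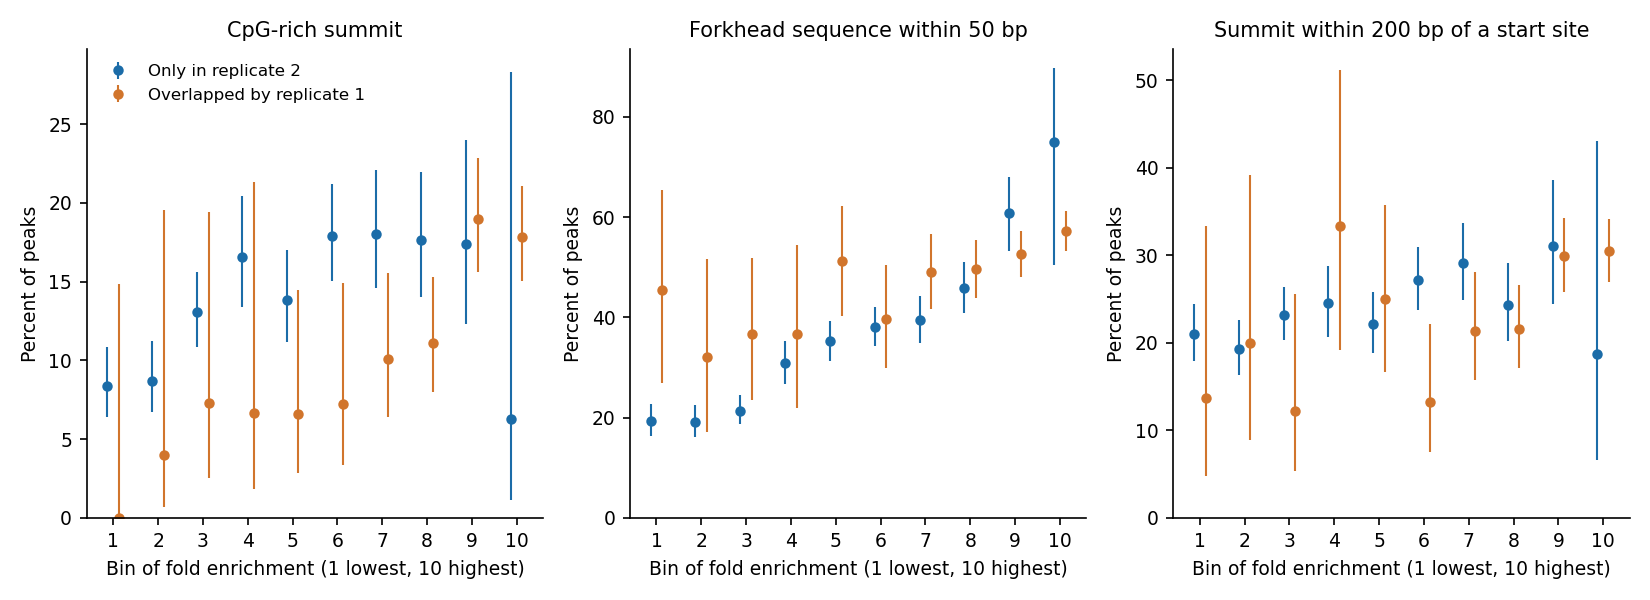
Percent of promoter peaks that were CpG-rich (left), held a forkhead heptamer (middle) or lay within 200 bp of a start (right), in 10 bins of replicate 2 fold enrichment, for replicate 2-only (blue) and overlapped (orange) peaks, with bars for 95% Wilson intervals. In bins 1 to 8 the blue points lie above the orange ones on the left, and in the middle the blue points rise with strength, from 19.3% in bin 1 to 75.0% of the 16 peaks in bin 10.

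To examine the sequence that FOXC1 itself is known to bind, the heptamer GTAAACA was looked for together with its variants (ATAAACA, also GTAAATA and also ATAAATA), reading either strand up to 50 bp from the summit. Of the replicate 2-only promoter peaks, 1379 (30.8%, 29.5 to 32.2) held at least 1, against 6.70% at control positions 500 bp away and 2.82% of windows at canonical starts. Overlapped promoter peaks held one in 928 cases (51.8%, 49.4 to 54.1), and their control positions in 8.09%. The difference of −20.9 points (−23.6 to −18.3) was far beyond counting error (Fisher's exact test p = 2.40e-53). Within bins of fold enrichment it was smaller, at −4.96 points (odds ratio 0.814, 0.698 to 0.9496, Mantel-Haenszel chi-square test p = 0.00809, adjusted 0.0162). It did not hold at every strength. In the lowest bin 19.3% of replicate 2-only and 45.5% of overlapped peaks held a heptamer. In the bin from 5.92 to 8.72 the shares were 60.9% and 52.7%, and in the strongest bin 75.0% of 16 peaks and 57.3%. Within bins of −log10 p the difference was −2.30 points and no longer passed the threshold (odds ratio 0.909, 0.774 to 1.07, chi-square test p = 0.238). In the 100 replicate 2-only promoter peaks with the lowest −log10 p, the share was 13.0% (7.76 to 21.0).

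The 4 spellings were not equally frequent. GTAAACA stood at 13.8% of replicate 2-only summits and 0.961% of their control positions, ATAAACA at 10.1% and 1.88%, ATAAATA at 4.76% and 2.57%, and GTAAATA at 4.34% and 1.63%. In overlapped peaks GTAAACA reached 27.6%. CpG-rich summits held the heptamers too: 159 of the 620 replicate 2-only ones did (25.6%, 22.4 to 29.2), against 3.23% of their control positions, and 136 of the 260 overlapped ones (52.3%, 46.2 to 58.3). Among the replicate 2-only peaks, the 159 with both features had a median fold enrichment of 3.899, the 1220 with a heptamer alone 3.45, the 461 that were only CpG-rich 3.25 and the 2635 with neither 3.06. That last group was the largest of the 4.

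Sequences of other promoter factors were searched in the same windows, again reading either strand. The AP-1 sequences TGACTCA and TGAGTCA stood at 5.90% of replicate 2-only summits and 1.56% of their control positions, and at 10.7% of overlapped ones. The GC box GGGCGG, bound by SP factors, stood at 7.55% of replicate 2-only summits and 8.36% of their control positions. Among the CpG-rich ones it stood at 31.6% of summits and 20.3% of control positions, and at canonical starts at 35.9%. The CCAAT box was found at 13.1% of replicate 2-only summits and 11.1% of control positions, TATAAA at 8.09% and 6.55%, and the ETS sequence CCGGAAG at 1.61% and 1.09%. Among CpG-rich replicate 2-only summits the ETS sequence stood at 6.77%, against 8.34% of canonical starts. Other sequences of housekeeping promoters were rare. TGACGTCA stood at 0.291%, GCATGCGC at 0.313%, CACGTG at 2.10% and AAGATGGC at 0.648% of replicate 2-only summits. In the same order, they stood at 0.0670%, 0.223%, 1.45% and 0.469% of control positions. At canonical starts, which are more often CpG-rich, the shares were 1.19%, 1.79%, 3.30% and 3.03%. Among CpG-rich replicate 2-only summits they were 1.13%, 1.29%, 4.03% and 1.45%. A match says only that these letters lie in the window, and some spellings are short enough to recur by base composition alone.

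Head-to-head gene pairs, whose starts lie at most 1 kb apart on opposite strands and share one promoter, were looked at because such promoters are mostly CpG-rich. Both starts of a pair lay within 2 kb of the summit in 156 replicate 2-only peaks (3.49%, 2.99 to 4.06) and 52 overlapped peaks (2.90%, 2.22 to 3.78). The difference of 0.586 points (−0.428 to 1.48, Fisher's exact test p = 0.275) was within counting error. Of the CpG-rich replicate 2-only peaks, 48 (7.74%) lay at such a pair.

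Each replicate 2-only peak was given the protein-coding gene of its nearest start, which named 3588 of 20098 genes (17.9%). Overlapped promoter peaks named 1591 genes (7.92%), and 509 genes had both kinds. Of the genes with a replicate 2-only peak, 2880 had 1 such peak, 567 had 2 and 141 had 3 or more. Their canonical promoters were CpG-rich in 77.0% of cases (75.6 to 78.3), those of genes with an overlapped peak in 74.6% (72.4 to 76.6), and those of genes with neither in 58.9% (58.1 to 59.7). Genes with a replicate 2-only peak had a median of 8 annotated starts and those with an overlapped peak 9, against 5 over all genes. In the same order, the median promoter lengths were 13729, 15145 and 8292 bp. The part of promoter length in which genes were marked was not tested.

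To describe which gene classes were marked, 32 classes were set by gene symbol and read against the 17.9% of all genes. These shares are descriptions with 95% Wilson intervals, and no class was tested. Housekeeping classes, whose promoters were CpG-rich in 73.8% of genes or more, stood on both sides of the background. Aminoacyl-tRNA synthetases, which charge tRNAs, had a replicate 2-only peak at 13 of 35 genes (37.1%, 23.2 to 53.7), and splicing factors at 23 of 87 (26.4%, 18.3 to 36.6). Ribosomal proteins had one at 17 of 85 (20%), proteasome subunits at 10 of 50 (20%) and translation factors at 13 of 73 (17.8%). Lower shares were found for respiratory chain genes, at 15 of 107 (14.0%), and mitochondrial ribosomal proteins, at 8 of 78 (10.3%, 5.29 to 19.0). At a −log10 q of 5 or more, synthetases stood at 5.71%, splicing factors at 6.90%, ribosomal proteins at 1.18% and proteasome subunits at 10%. Translation factors then stood at 2.74%, respiratory chain genes at 3.74% and mitochondrial ribosomal proteins at 1.28%, against 4.75% of all genes. The synthetases had a median of 13 starts a gene, against 5 over all genes. Per megabase of promoter, replicate 2-only peaks numbered 36.1 for ribosomal proteins, 32.5 for synthetases and 25.9 for splicing factors. Proteasome subunits had 21.0, respiratory chain genes 18.8, translation factors 18.6 and mitochondrial ribosomal proteins 13.9, against 19.1 over all genes. A high share of CpG-rich promoters in a class thus did not go with one level of marking.

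**Figure D5:**
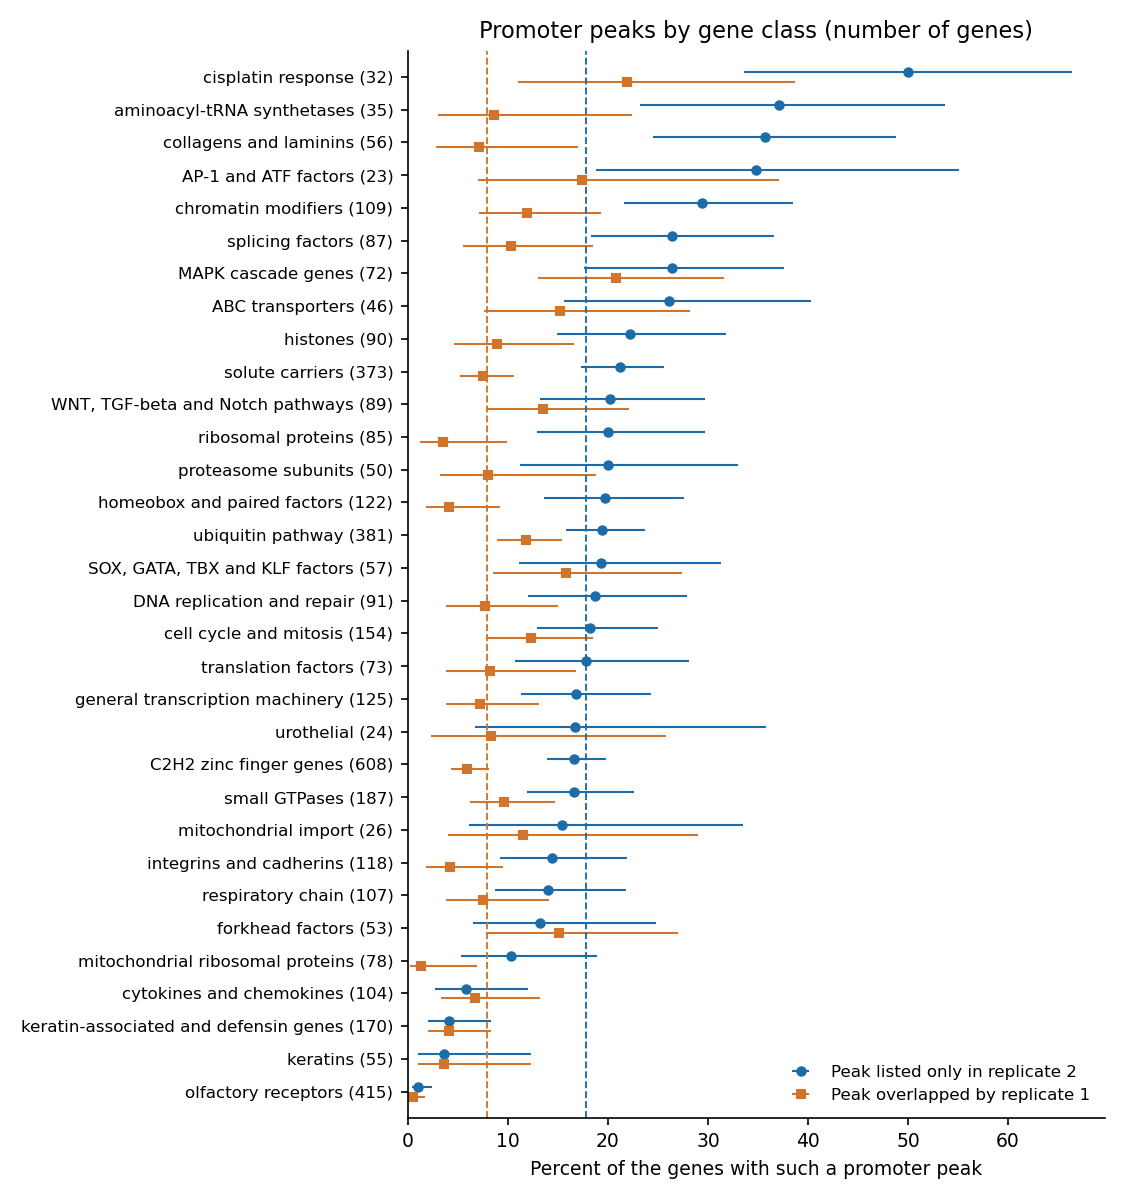
Percent of the genes of each class with a replicate 2-only promoter peak (blue circles) or an overlapped one (orange squares), with 95% Wilson intervals and, dashed, the shares over all genes, 17.9% and 7.92%. The cisplatin response list stands highest in blue at 50% and olfactory receptors lowest at 0.964%, and most classes span the dashed line.

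The strongest peaks of these classes differed in their distance from a start. KARS1, the lysyl-tRNA synthetase, had a CpG-rich summit with a forkhead heptamer 42 bp before a start, at a fold enrichment of 6.11 and 31 reads, while EPRS1 had 3.93. Among splicing factors, SRSF6 reached 6.35 and HNRNPF 6.30, both CpG-rich. PSMD7, a lid subunit of the proteasome, reached 8.198 with 42 reads, 247 bp before a start, and PSMG1, a proteasome assembly chaperone, 6.11. RPL7L1 had 4.24 and RPS6 3.92, and the translation list was led by EIF4EBP2 at 6.30 and EIF4EBP3 at 4.78, which are repressors of initiation. NDUFS3, a complex I subunit, had 5.73, and the assembly factor NDUFAF6 7.92 at a CpG-rich summit 15 bp before a start. MRPL32 led the mitochondrial ribosomal proteins at 4.97, and TOMM5 the import machinery at 3.79.

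By share of genes, the classes of chromatin and the cell cycle stood near or above the background. Chromatin modifiers had a replicate 2-only peak at 32 of 109 genes (29.4%, 21.6 to 38.5), led by CHD8, a remodeller, at a fold enrichment of 6.17, and ARID2, a SWI/SNF subunit, at 5.54. They also had a median of 13 starts a gene, and per megabase of promoter they held 17.3 replicate 2-only peaks, against 19.1 over all genes. Histone genes, which have a median of 1 start and short promoters, had 20 of 90 genes marked (22.2%) and 65.3 peaks per megabase, led by H2BC5 at 6.01. Overlapped peaks were dense in histone promoters too, at 23.5 per megabase against 7.66 over all genes. Near-identical histone genes lie close together, and the choice of gene among neighbours is uncertain there. DNA replication and repair genes had 17 of 91 marked (18.7%), led by RFC4 at 6.19 and ERCC4 at 6.12, and cell cycle genes 28 of 154 (18.2%), led by BUB1, a checkpoint kinase, at 5.73. Per megabase of promoter, replication and repair genes held 14.4 replicate 2-only peaks and cell cycle genes 17.3, both below the 19.1 over all genes. Shares of 16.6% were found for both the 608 C2H2 zinc finger genes, led by ZNF585B at 8.16, and the 187 small GTPases, led by RHOT1, a mitochondrial GTPase, at 7.098. General transcription factors stood at 21 of 125 (16.8%), led by MED13L at 5.13, and the ubiquitin pathway at 74 of 381 (19.4%), led by FBXO32. A peak beside TRIM49D2, at 7.21, lies in a multicopy family and its placing is uncertain.

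Signalling and regulatory classes also stood on both sides of the background. AP-1 and ATF factors had 8 of 23 genes marked (34.8%, 18.8 to 55.1), among them ATF2 at a fold enrichment of 5.18, 3 bp past a start, and JUN at 4.96, 1118 bp before its start, both at CpG-rich summits. Overlapped peaks also marked AP-1 and ATF genes above their own background, at 17.4% against 7.92% of all genes. Genes of the MAPK cascade, kinases and their phosphatases, had 19 of 72 marked (26.4%, 17.6 to 37.6) and were also often marked by overlapped peaks (20.8%), with MAP2K3, a p38 activator, at 5.54. Their density of 19.7 replicate 2-only peaks per megabase of promoter was close to the 19.1 over all genes. MAP3K7CL, which the symbol pattern also caught and which is named for its likeness to the end of a kinase of the cascade, had 6.30. Forkhead factors had 7 of 53 marked (13.2%, 6.55 to 24.8), fewer than the 8 marked by overlapped peaks, led by FOXO3 at 5.15. Homeobox and paired factors had 24 of 122 (19.7%) by replicate 2-only peaks and 4.10% by overlapped ones, led by HOXA3 at 5.92. SOX, GATA, TBX and KLF factors had 11 of 57 (19.3%), led by SOX13 at 6.11 and KLF4 at 4.58. WNT, TGF-beta and Notch pathway genes had 18 of 89 (20.2%), led by SMAD7, an inhibitor of TGF-beta signalling, at 5.35.

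Among genes of the cell surface and matrix, collagens and laminins stood above the background and keratins below it. Collagens and laminins had 20 of 56 genes marked (35.7%, 24.5 to 48.8) against 7.14% by overlapped peaks, led by COL12A1 at 5.80 and COL1A2 at 5.63, neither CpG-rich. Their density of 19.6 peaks per megabase of promoter was close to the 19.1 over all genes. ABC transporters had 12 of 46 marked (26.1%, 15.6 to 40.3), led by ABCA10 at 4.47 and the cholesterol exporter ABCA1 at 4.35. Their density was also close to that over all genes, at 19.6 peaks per megabase. Solute carriers had 79 of 373 (21.2%), led by SLC25A45 at 8.52 and the lactate carrier SLC16A1 at 7.098, and integrins and cadherins 17 of 118 (14.4%). Some classes used in few cell types were seldom marked: olfactory receptors at 4 of 415 genes (0.964%, 0.375 to 2.45), keratins at 2 of 55 (3.64%), keratin-associated and defensin genes at 7 of 170 (4.12%) and cytokines and chemokines at 6 of 104 (5.77%, 2.67 to 12.02). In the same order, their shares by overlapped peaks were 0.482%, 3.64%, 4.12% and 6.73%, against 7.92% of all genes. The strongest replicate 2-only peak of the cytokines was at IL18, at 7.43 and 40 reads. CpG-rich promoters made up 0.241% of olfactory receptor and 15.4% of cytokine promoters, against the 63% over all canonical promoters.

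Because the study concerned cisplatin resistance, a list of 32 genes of the cisplatin response was described, picked with earlier results of these data known. A replicate 2-only promoter peak was found at 16 of them (50%, 33.6 to 66.4), against 17.9% of all genes, and an overlapped one at 7 (21.9%). The list had 38.8 replicate 2-only peaks per megabase of promoter. Most of these peaks were weak, like most replicate 2-only peaks. At a −log10 q of 5 or more, 6 of the 16 genes were marked, against 954 of the 3588 genes with a replicate 2-only peak. The highest was NFE2L2, a regulator of the oxidative stress response, at 5.13 and 32 reads, followed by ID2 at 4.39 and the repair genes ERCC1 at 4.39 and ERCC2 at 3.93. The copper and cisplatin importer SLC31A1 had 4.10 and the NFE2L2 inhibitor KEAP1 3.82. CDKN1A, a cell cycle inhibitor, also had 3.82, with 19 reads over 4.15.

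The drug exporter ABCB1 had one replicate 2-only peak at chr7:87229196-87229537, in an intron 790 bp past a start, with a fold enrichment of 3.57, 20 reads over a background of 4.81, a −log10 q of 4.03 and no forkhead heptamer. A replicate 1 peak lay 296 bp from it, and ABCB1 also had 1 overlapped promoter peak. BCL2L1, a survival factor, had 3.59, XPC, a damage sensor, 3.58 and MCL1 3.08. CpG-rich summits near starts were found at the glutathione synthesis enzyme GCLC at 3.25, the metallothionein MT2A at 3.06 and the glutathione transferase GSTP1 at 2.87. Among the weakest was ABCC3, which transports drug conjugates, at 2.49 with 12 reads and a −log10 q of 0.453, short of a q of 0.05.

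Of 24 urothelial genes, 4 had a replicate 2-only promoter peak (16.7%, 6.68 to 35.9), near the background. CD44, a basal cell marker, had 2 such peaks, at 4.66 and 2.96. The luminal regulator GATA3 had 1, at 4.02, and the luminal regulator PPARG had 4, all under 3, of which 2 held a forkhead heptamer. EGFR had 1, at 2.49 with 12 reads.

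Some genes gathered several replicate 2-only peaks. The 141 genes with 3 or more had a median of 15 starts, and 51 of them also had an overlapped promoter peak. PTK2, the focal adhesion kinase, and ZMYND8, a chromatin reader, had 7 each. PTK2 has 55 annotated starts and its strongest peak was at 3.76, while ZMYND8 has 13 and reached 4.43. FRMD4A, KLF5, TACC3, UQCC1 and ZBTB20 had 5 each. Some of these peaks were short of a q of 0.05. At ZMYND8 they were those with a −log10 q of 1.14, 0.949, 0.840 and 0.453. At TACC3 they were those with 1.21, 0.875 and 0.693. A PTK2 peak at 0.370 and a FRMD4A peak at 0.284 were also short of it. The other peaks of the genes named here reached it. KLF5, an epithelial transcription factor, had only 4 starts, against 13 to 55 in the others named here. Its 5 peaks lay between chr13:73630147 and chr13:73635670, at fold enrichments from 3.17 to 3.76 and 19 to 35 reads. In that stretch 3 of the 5 held a forkhead heptamer, and the nearest replicate 1 peak was at least 39685 bp from each.

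The share of replicate 2 promoter peaks that had no replicate 1 overlap ranged from 55.4% to 78.6% between chromosomes. It was lowest on chromosome X, over 83 peaks (44.7 to 65.6), and highest on chromosome 20, over 285 (73.5 to 83.0), with 70.9% of 632 on chromosome 1. This was not particular to promoters. Among replicate 2 peaks outside promoters the share was 63.9% on chromosome X, 66.4% on chromosome 1, 76.1% on chromosome 20 and 77.0% on chromosome 19. Without chromosomes 20 and X the CpG-rich, forkhead and head-to-head differences had the same sign as with them, and the forkhead difference still passed the test.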

How the data were processed

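FOXC1 ChIP-seq of J82 cells was sequenced as single-end reads of 75 bp. The submitters' processing notes and the study name BWA, hg19 and MACS2 2.2.7.1, and the authors called peaks on each replicate alone, against input. The study then called reproducible peaks with a tool for the irreproducible discovery rate, but the deposited lists state neither that step nor a limit on p or q. The score deposited by the authors is −log10 p times 10 in whole numbers. The fold enrichment deposited by the authors is a ratio of ChIP pileup to local background, and their −log10 p and −log10 q compare the same values. The deposited lists hold no read totals, so total depth is unknown. Whole reads over each summit were solved from the fold enrichment and −log10 p, within a residual of 0.001, for 99.8% of replicate 1 and 99.5% of replicate 2 peaks.

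The lists held 22447 and 41832 entries, of which 22393 and 41750 lay on chromosomes 1 to 22 and X. Start sites came from GENCODE 44 mapped to GRCh37, the assembly of hg19, while the study used another version. Sequence was read from GRCh37. Two-sided Fisher's exact tests compared 4 measures, with Benjamini-Hochberg adjustment, Newcombe intervals for differences and Wilson intervals for shares (95%), all covering counting error only. Mantel-Haenszel tests used 10 bins of replicate 2 strength. Python 3.11.15, scipy 1.17.1 and statsmodels 0.14.6 were used, and the steps were checked on simulated data.

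The members and the gene lists were chosen with earlier results of these data known. Named genes were the 12 members of highest fold enrichment, the 2 leading genes of each class with at least 3 marked genes, genes with at least 3 members, all marked genes of the urothelial and cisplatin lists, and the peaks nearest each limit of the rule. Some genes that this rule names are not reported here. Input files were not analysed here.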

Additional observations from a re-analysis of the deposited data

How the results depend on the processing

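No paired analysis was possible because the rule needs both peak lists, and each replicate gives 1 list; for the same reason no replicate could be left out. The difference in CpG-rich share (−0.646 points) changed sign with lists of equal length (1.56), with bins of fold enrichment (5.53), −log10 p (3.60) or peak width (1.014), with a looser definition of 50% GC and a ratio of 0.6 (0.0551), with a 1000 bp window (0.104) and with the window at the start site (3.59), and was −10.5 with the replicates' roles swapped; the bins of fold enrichment and of −log10 p, the start-site window and the swap passed the unadjusted threshold. The forkhead difference (−20.9) kept its sign under all 13 alternatives and lost its call in bins of −log10 p (−2.30). The difference within 200 bp of a start (−2.47) turned in bins of fold enrichment (3.74) and of −log10 p (3.48). It lost its unadjusted call requiring no replicate 1 peak within 1 kb (−2.28), at a −log10 q of 5 (−0.941), with equal lists (−0.460), in bins of width (−0.0642), at 500 bp (−1.95) and without chromosomes 20 and X (−2.26). With roles swapped it was −11.8. The head-to-head difference (0.586) turned with roles swapped (−1.33) and then passed the unadjusted threshold (Fisher's exact test p = 0.0336). Members numbered 1014 at a −log10 q of 5, 1581 with equal lists and 930 with roles swapped. The share of genes marked was 19.6% counting every gene within 2 kb and 4.75% at a −log10 q of 5. The bins of −log10 p and of width and the leaving out of chromosomes were chosen after seeing the data. Causes were not tested, beyond fewer peaks in the stricter lists. A single peak rests on few reads, and absence from the replicate 1 list does not show absence of binding there.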

Other observations

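Replicate 2-only peaks outside promoters numbered 24021 and were like those in promoters in strength, with a median fold enrichment of 3.18 and 19 reads. Of them, 33.8% (33.2 to 34.4) held a forkhead heptamer within 50 bp of the summit.

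The reverse set, promoter peaks listed only in replicate 1, was smaller and different in make-up. It held 930 peaks, with a median fold enrichment of 2.61 and 14 reads in replicate 1, and 63.1% of them had a q-value above 0.05. CpG-rich summits made up 4.09% (2.99 to 5.56) and forkhead heptamers stood at 11.9% (10.0 to 14.2), against 14.6% and 44.4% of the 1798 replicate 1 promoter peaks that a replicate 2 peak overlapped.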
